A study of Mus musculus with 14 samples.

Results

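The 10 genes described here belong to extracellular matrix turnover, and they were followed through the mouse corneal stroma and through cells cultured from it: the matrix metalloproteinases Mmp2, Mmp3, Mmp9, Mmp11, Mmp12, Mmp13 and Mmp14, and the tissue inhibitors of metalloproteinases Timp1, Timp2 and Timp3. They were chosen by the gene symbol in the platform annotation and not by their signals. They are 10 of the 8251 genes that the annotation gives, and they have 16 of the 12422 probe sets of the Affymetrix MG_U74Av2 array that are not controls. Total RNA of 14 samples in 5 groups had been hybridised, 1 array per sample. The myofibroblast cultures (n = 3) were grown in 10% fetal bovine serum to which TGF-beta1 was added at 10 ng/ml, the fibroblast cultures (n = 3) in that serum without TGF-beta1, and the keratocyte cultures (n = 3) in DMEM with 1% platelet-poor horse serum. The cells of all 9 cultures came from the stroma of CD-1 mice aged 7 to 8 weeks. The adult stroma samples (n = 3) were tissue of CD-1 mice of that age, and the P10 stroma samples (n = 2) were tissue of CD-1 mice at postnatal day 10. No transgene or deletion is named for any group. The cultures are named after the medium they were grown in, and the labels do not say how many animals were pooled or whether replicates are separate cultures or animals. P-values therefore measure only the spread between these samples.

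Matrix metalloproteinases are zinc-dependent enzymes that cut collagens, proteoglycans and other proteins outside the cell, and most are secreted as inactive proenzymes. The TIMPs bind the active site of these enzymes and block them. In the cornea, whose transparency depends on ordered collagen fibrils, these enzymes and inhibitors are known for their part in wound repair and scar remodelling. Their activity is set by activation and inhibition of the protein as well as by transcript level, and only transcript signals were measured here.

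The genes of the metalloproteinase cluster of chromosome 9 lie, in RefSeq gene order, as Mmp13, Mmp12, Mmp1b, Mmp3, Mmp1a, Mmp10, Mmp8, Mmp27, Mmp20 and Mmp7. Mmp14 is on chromosome 14, Timp1 on chromosome X, Timp2 on chromosome 11 and Timp3 on chromosome 10. A promoter window of 250 bases before to 50 bases after the start was held by the RefSeq table (build GRCm38.p6) for 8 of the 10 genes, in 9 windows, with 2 windows for Mmp12. The windows were searched for the AP-1 motif, bound by dimers of Fos and Jun proteins and long known from metalloproteinase promoters, as the letters TGAGTCA or TGACTCA. Each of these words is the reverse complement of the other, so that both strands were covered. The motif was in 3 of the 9 windows, those of Mmp3, Mmp13 and the second window of Mmp12, and 5.2% of all 32851 promoter windows in the table hold it. A match describes these letters only and shows no binding. Close variants, such as the tgagtaa in the Timp1 window, were not searched for, so a window without a match may still hold one. The sequences are shown because Mmp3, Mmp12 and Mmp13 were each lower in the culture with TGF-beta1 in every numbered pair described further on. Timp1 and Timp3 are shown as inhibitors whose windows lack these exact letters. Timp1 was also lower with TGF-beta1 in every pair, by 1.04-, 1.1- and 1.09-fold, and so was Timp2 by 160116_at, though neither was called. Being lower in every pair is thus not particular to genes whose window holds the motif. Capitals mark the AP-1 motif. The Mmp3 window (chr9:7445572-7445871, plus strand) has it starting 46 bases before the start, the Mmp12 window (chr9:7347124-7347423, plus strand) 44 bases before and the Mmp13 window (chr9:7272264-7272563, plus strand) 35 bases before. The Timp1 window is chrX:20869916-20870215 and the Timp3 window chr10:86300162-86300461, both on the plus strand.
Mmp3: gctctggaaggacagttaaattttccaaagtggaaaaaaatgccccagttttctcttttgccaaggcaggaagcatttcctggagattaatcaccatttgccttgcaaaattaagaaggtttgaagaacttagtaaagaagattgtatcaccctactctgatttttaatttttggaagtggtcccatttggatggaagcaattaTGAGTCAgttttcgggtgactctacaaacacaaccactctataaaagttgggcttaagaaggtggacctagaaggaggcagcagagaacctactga
Mmp12: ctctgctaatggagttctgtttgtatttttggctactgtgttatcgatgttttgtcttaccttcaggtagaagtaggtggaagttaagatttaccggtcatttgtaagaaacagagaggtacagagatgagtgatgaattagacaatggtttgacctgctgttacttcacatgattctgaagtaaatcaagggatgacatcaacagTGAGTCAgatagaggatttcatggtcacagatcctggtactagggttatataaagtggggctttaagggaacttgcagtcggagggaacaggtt
Mmp13: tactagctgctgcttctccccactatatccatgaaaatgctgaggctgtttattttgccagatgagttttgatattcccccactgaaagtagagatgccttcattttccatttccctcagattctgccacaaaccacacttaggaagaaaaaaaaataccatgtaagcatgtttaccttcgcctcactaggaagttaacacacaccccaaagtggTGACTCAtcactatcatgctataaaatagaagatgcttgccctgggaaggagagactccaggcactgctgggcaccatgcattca
Timp1: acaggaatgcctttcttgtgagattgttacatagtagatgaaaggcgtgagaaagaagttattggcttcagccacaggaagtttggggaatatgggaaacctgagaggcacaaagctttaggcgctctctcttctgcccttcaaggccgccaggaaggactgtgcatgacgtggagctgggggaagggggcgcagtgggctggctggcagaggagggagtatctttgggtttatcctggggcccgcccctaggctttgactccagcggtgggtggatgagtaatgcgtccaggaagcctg
Timp3: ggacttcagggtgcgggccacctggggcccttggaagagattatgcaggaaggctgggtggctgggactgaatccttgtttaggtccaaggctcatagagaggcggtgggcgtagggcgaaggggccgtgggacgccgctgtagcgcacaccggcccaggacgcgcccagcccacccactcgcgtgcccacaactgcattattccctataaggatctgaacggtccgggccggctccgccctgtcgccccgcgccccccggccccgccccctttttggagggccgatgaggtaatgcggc

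Signals are the deposited Microarray Suite 5.0 values on a linear scale. The 19 control probe sets whose targets had not been spiked in had a 95th percentile of 137.7, and a signal at or below it is called within background here. Median array signals ran from 102 to 135.6. With 2 or 3 arrays in a group, the precision of a mean is limited. The ratio of 3' to 5' Gapdh signal, a measure of RNA degradation, was 0.756 to 0.859 on the 9 culture arrays, 0.908 to 2.12 in adult stroma, highest on replicate 1, and 0.896 to 0.936 in P10 stroma. The same ratio for Actb was 1.06 to 1.2 on the culture arrays, 1.49 to 4.05 in adult and 1.44 to 1.47 in P10 stroma. By both ratios every tissue array was thus above every culture array. The tissue samples carried other cell types: the summed signal of 9 corneal epithelium markers was 380.2 to 823 on the culture arrays, against 21030 to 22350 in adult stroma and 23760 to 23970 in P10 stroma. The summed signal of 4 retina markers was 73.5 to 125.5 on culture arrays, against 610.0 to 3123 in adult and 1567 to 2556 in P10 stroma, and 5 lens markers also summed higher in tissue (3854 to 8564) than in cultures (1255 to 2654). The part of these cell types in the differences between cultures and tissue was not tested. In such bulk samples, fewer cells of a type and less RNA per cell cannot be told apart. The label of the myofibroblast cultures was checked with Acta2, the smooth muscle actin that defines such cells. Acta2 had signals of 2932 to 3061 in myofibroblast cultures and 3066 to 3347 in keratocyte cultures, so it did not set these groups apart. Fibroblast replicate 3 stood apart from its group, with Acta2 at 638, against 2544 and 2954 on the other fibroblast arrays, and the values without it are given beside the Mmp3, Mmp12 and Timp3 differences in which it decides a call or moves the value most. Kera, the keratan sulfate proteoglycan keratocan, was at 15.7 on keratocyte replicate 2, within background, against 315 and 164 on the other keratocyte arrays.

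Of the 16 probe sets, 12 reached a mean signal of 50 in at least 1 group and were tested, and each of the 10 genes had at least 1 of them. The probe sets not tested, a second one each for Mmp2, Mmp9 and Timp1 and another for Timp2, had no array above 59.8. Mmp11, Mmp13 and 1 Mmp12 probe set (95338_s_at) reached the mean of 50 in cultures only, so that their higher signals in culture are tied to the filter and the counts below are descriptions. Differences are given on the scale log2(signal + 16). The text gives those of a single probe set only where both group means were above background, whereas medians over the 12 and the plot of differences take in all of them. Where all arrays of the lower group were within background, the fold is a lower bound taken against background. The tests are limma's, fitted over all 10370 probe sets that passed the filter, with Benjamini-Hochberg adjusted p-values called below 0.05.

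**Figure D1:**
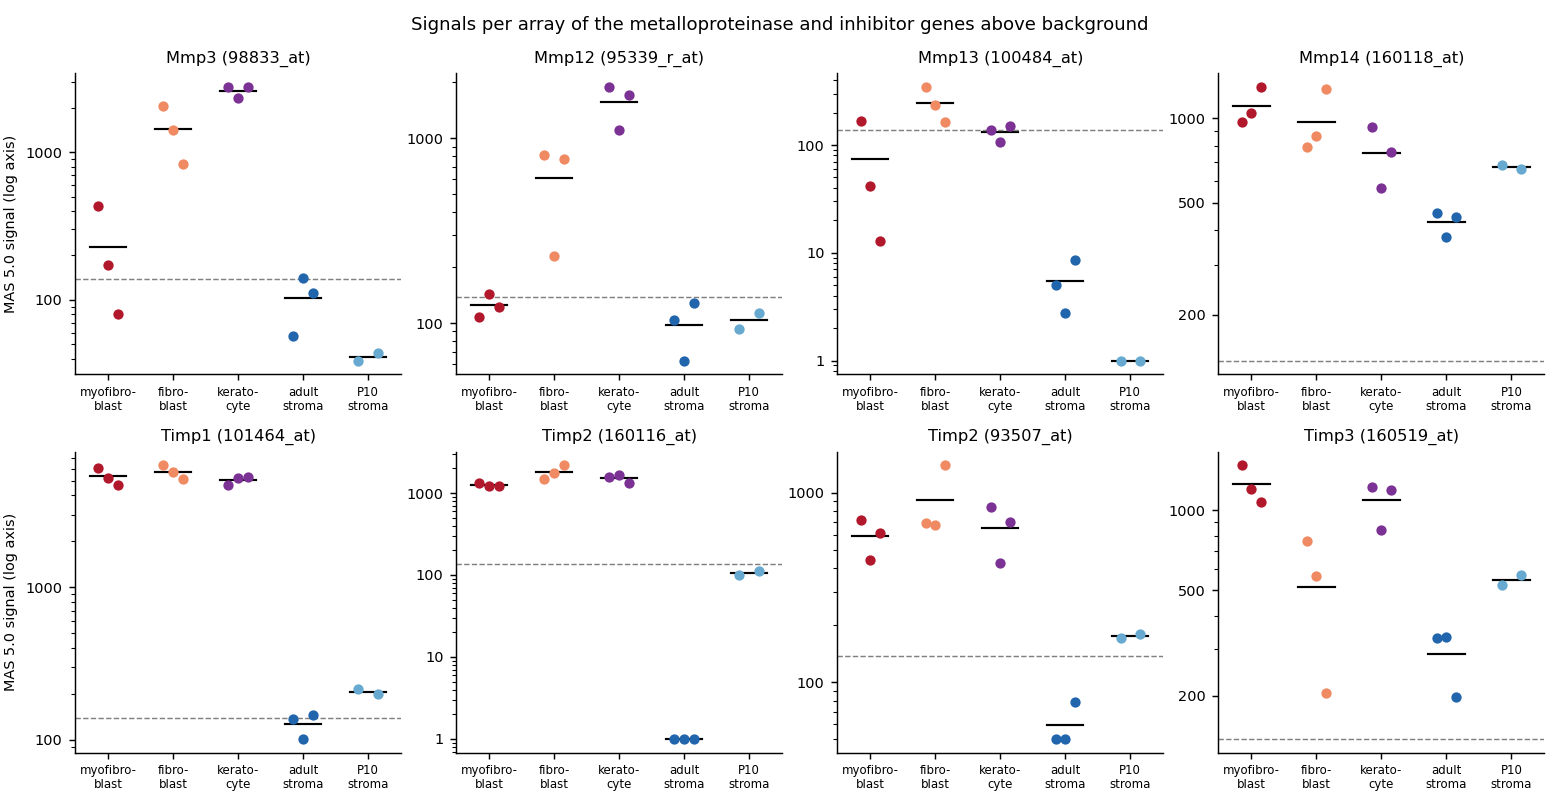
Signal per array on log axes for 8 probe sets of Mmp3, Mmp12 (95339_r_at), Mmp13, Mmp14, Timp1, Timp2 and Timp3, with 1 point per array, a bar at the group mean and a dashed line at the background of 137.7. Groups run from myofibroblast culture at the left to P10 stroma at the right; Timp1 lies at 4671 to 6321 on all culture arrays, while Mmp12 is high in keratocyte cultures and near or below the line in myofibroblast cultures.

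The comparisons of each culture with adult stroma ask which of these genes differ between cells in a dish and the tissue they came from. In keratocyte cultures 10 of the 12 probe sets, of 8 genes, were higher than in adult stroma and none was lower, where 21.8% of all tested probe sets were called higher. The fibroblast cultures had 9 of the 12 higher, of 7 genes (18.4% of all tested), and the myofibroblast cultures 7 of the 12, of 6 genes (17.5% of all tested). The median log2 difference over the 12 was 2.95 in keratocyte, 2.93 in fibroblast and 1.49 in myofibroblast cultures, against 0.12, 0.04 and -0.01 over all tested probe sets. The 3 comparisons share the adult arrays. Centring each array on its median left 17.3%, 17.3% and 18.3% of all tested probe sets called higher in keratocyte, fibroblast and myofibroblast cultures, and did not change the 10, 9 and 7 counted here.

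Among the secreted proteases, Mmp3 (stromelysin-1), which cuts proteoglycans and fibronectin and activates other proenzymes, had signals of 435, 173 and 80.2 in myofibroblast cultures, 2044, 1409 and 827 in fibroblast cultures and 2746, 2316 and 2770 in keratocyte cultures. Adult stroma gave 57.1, 140.5 and 111 and P10 stroma 38.8 and 43.7. All 3 keratocyte arrays lay above all fibroblast arrays, and these above all myofibroblast arrays, with no overlap, while the myofibroblast and adult arrays overlapped. Against adult stroma Mmp3 rose in keratocyte cultures (adjusted p = 3.31e-06) and in fibroblast cultures (adjusted p = 3.18e-05). The difference of myofibroblast cultures from adult stroma did not pass (adjusted p = 0.184), although it did without myofibroblast replicate 3, the lowest of its group.

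Mmp12, the macrophage elastase, is measured by 2 probe sets, and both gave the same order of groups among the cultures. Probe set 95338_s_at had 38.5, 43.5 and 41.8 in myofibroblast cultures, 599.5, 107 and 605 in fibroblast cultures and 1258, 857 and 1123 in keratocyte cultures, against 1 to 18.9 in adult stroma and 26.7 to 27.8 in P10 stroma. Probe set 95339_r_at had 108, 144 and 123 in myofibroblast cultures, 811, 230 and 774 in fibroblast cultures and 1890, 1112 and 1719 in keratocyte cultures, against 62.7 to 128 in adult stroma and 92.8 to 114 in P10 stroma. Every keratocyte array exceeded every fibroblast array on both probe sets, and fibroblast replicate 2 was the lowest of its group on both. Keratocyte cultures were at least 7.74-fold and at least 11.1-fold higher than adult stroma by the 2 probe sets (adjusted p = 8.71e-07 and 3.49e-06). Fibroblast cultures were at least 2.46-fold and at least 3.81-fold higher (adjusted p = 2.71e-05 and 0.000375). In myofibroblast cultures 1 of the 3 arrays was above background on 95339_r_at and none on 95338_s_at, and neither passed against adult stroma (adjusted p = 0.537 and 0.0864). Probe set 95338_s_at did pass with the constant 1, after quantile normalization and with only these 2 groups in the fit.

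Some macrophage markers had the order of groups that Mmp12 had among the cultures, and others had not. Of 13 tested macrophage markers, 8 rose and none fell in keratocyte cultures against adult stroma. In fibroblast cultures 7 rose and 1 fell, and in myofibroblast cultures 3 rose and 4 fell. Among all tested probe sets, 21.8% were called higher in keratocyte, 18.4% in fibroblast and 17.5% in myofibroblast cultures, and 9.25%, 12.3% and 15.5% lower. The summed signal of the 13 markers was 1635 to 2706 in myofibroblast, 1804 to 3654 in fibroblast and 3728 to 4501 in keratocyte cultures. Adult stroma had 1313 to 1882 and P10 stroma 2006 to 2082. Lyz2, the lysozyme of myeloid cells, had 121, 21.6 and 222 in myofibroblast cultures, 722, 130.1 and 599.5 in fibroblast cultures and 1227, 833 and 1329 in keratocyte cultures, against at most 12.6 in tissue. Fibroblast replicate 2, the lowest of its group for Mmp12, was also the lowest for Lyz2, Cd68, Tyrobp and C1qa. The means of Fcer1g, Cd14 and Aif1 ran the other way: Fcer1g had 201, 156.5 and 100.4 in myofibroblast, fibroblast and keratocyte cultures, Cd14 had 707, 678 and 575.5, and Aif1 had 317, 306.5 and 231. Adgre1, which encodes the macrophage marker F4/80, was within background on all 14 arrays, with 89.3 as its highest signal. Csf1r, the receptor for macrophage colony-stimulating factor, was at 146 to 261 on every array, tissue included. Both were called lower in myofibroblast cultures than in adult stroma, and Adgre1 was also called lower there than in keratocyte cultures. The part of macrophages in the Mmp12 and Mmp3 signals was not tested.

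**Figure D2:**
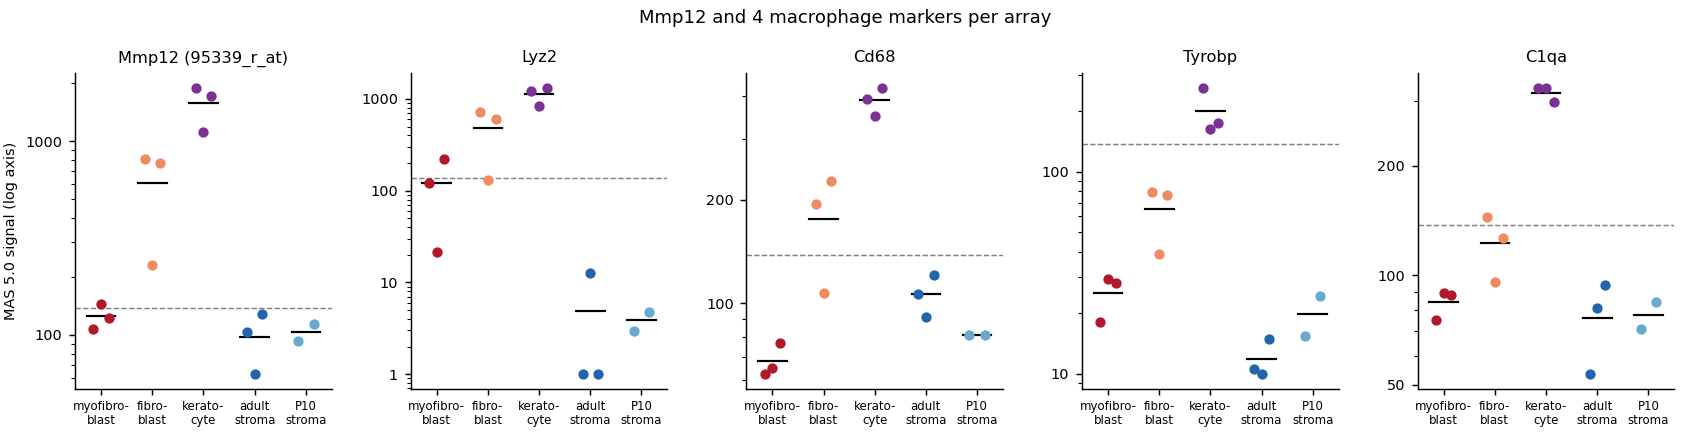
Signal per array on log axes for Mmp12 (probe set 95339_r_at) and 4 of the 13 macrophage markers, Lyz2, Cd68, Tyrobp and C1qa, picked after their values were seen, with group mean bars and the background of 137.7 as a dashed line where it falls within the axis. In all 5 panels the keratocyte arrays are the highest and fibroblast replicate 2 is the lowest fibroblast array, while the means of other markers not drawn, Fcer1g, Cd14 and Aif1, are lowest in keratocyte cultures among the cultures.

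Mmp13, a collagenase that cuts fibrillar collagens, gave 167, 41.5 and 12.8 in myofibroblast cultures, 346, 234 and 162 in fibroblast cultures and 138, 106 and 151 in keratocyte cultures. Adult stroma had 2.78 to 8.64, and both P10 arrays were at the floor of 1. The 3 fibroblast arrays and 2 of the 3 keratocyte arrays were above background, and of the myofibroblast arrays only replicate 1 was. Fibroblast cultures were at least 1.71-fold higher than adult stroma (adjusted p = 5.22e-05). Keratocyte cultures (adjusted p = 0.000466) and myofibroblast cultures (adjusted p = 0.0159) also passed against adult stroma. The myofibroblast call rests on replicate 1, without which the adjusted p was 0.0525, and it was 0.053 with only these 2 groups in the fit.

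Mmp14, the membrane-bound MT1-MMP that cuts collagen at the cell surface and activates proMMP2, was above background on all 14 arrays. It had 970.3, 1040.0 and 1292 in myofibroblast cultures, 792, 863 and 1265 in fibroblast cultures and 930.1, 564 and 762 in keratocyte cultures, against 461, 379 and 444 in adult stroma and 683 and 659 in P10 stroma. No culture array overlapped with adult stroma. The log2 difference from adult stroma was 1.33 ± 0.21 (SE) in myofibroblast cultures (adjusted p = 0.000213), 1.13 ± 0.21 in fibroblast cultures (adjusted p = 0.000872) and 0.77 ± 0.21 in keratocyte cultures (adjusted p = 0.0123). Without keratocyte replicate 1 the last of these was 0.60 with an adjusted p of 0.0684. The group means of 1101 ± 169 in myofibroblast, 973 ± 255 in fibroblast and 752 ± 183 in keratocyte cultures (SD, n = 3 each) did not differ in a way that passed the test.

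Mmp2, Mmp9 and Mmp11 gave little or no signal. Mmp2, the gelatinase A that corneal stromal cells are known to secrete, lay between 27.1 and 83.8 on its brighter probe set and was within background on every array, tissue and cultures alike. Mmp11 (stromelysin-3) was between 6.14 and 65.1 and also within background throughout, although it passed the test against adult stroma in all 3 cultures (adjusted p = 6.57e-05 in myofibroblast, 0.000518 in fibroblast and 0.000671 in keratocyte cultures). Both sides of those differences are within background, so they give no fold. Mmp9 (gelatinase B) was above background on 2 of 14 arrays, myofibroblast replicate 3 at 192 and fibroblast replicate 3 at 157, and passed in no comparison. It was called higher in myofibroblast cultures than in adult stroma without myofibroblast replicate 2, after quantile normalization or with the replicate block. These arrays thus give no level for Mmp2 and Mmp11 in any group, which is a limit of these probe sets and not a measure of absence.

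Among the inhibitors, Timp1, a secreted TIMP induced by serum and cytokines, had 6086, 5237 and 4671 in myofibroblast cultures, 6321, 5734 and 5113 in fibroblast cultures and 4699, 5201 and 5322 in keratocyte cultures. Adult stroma gave 136, 101 and 145 and P10 stroma 214 and 199.9. Every culture array was above every tissue array and the culture groups overlapped one another. Timp1 passed against adult stroma in myofibroblast cultures (adjusted p = 8.28e-12), fibroblast cultures (adjusted p = 6.29e-12) and keratocyte cultures (adjusted p = 8.85e-12). Only 1 of the 3 adult arrays exceeded background, so no fold is given.

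Timp2, the TIMP that also takes part in proMMP2 activation, has 2 probe sets with signal in culture. Probe set 160116_at had 1344, 1230.0 and 1218 in myofibroblast cultures, 1487, 1759 and 2187 in fibroblast cultures and 1582, 1678 and 1326 in keratocyte cultures, and each of the 3 adult arrays had it at 1, the lowest value in the table. Probe set 93507_at had 439 to 718 in myofibroblast, 672 to 1393 in fibroblast and 425 to 839 in keratocyte cultures, against 50.3 to 78.5 in adult stroma. By 160116_at the cultures were at least 9.17-fold (myofibroblast), 13-fold (fibroblast) and 11-fold (keratocyte) higher than adult stroma, with adjusted p at most 2.82e-12. By 93507_at the bounds were 4.19-fold, 6.27-fold and 4.56-fold for the same groups, with adjusted p at most 3.07e-06.

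Timp3, the TIMP that binds to the extracellular matrix, was above background on all 14 arrays. It gave 1475, 1202 and 1072 in myofibroblast cultures, 765, 564 and 205 in fibroblast cultures and 1223, 843 and 1194 in keratocyte cultures, against 331, 332 and 198 in adult stroma and 523 and 569 in P10 stroma. Myofibroblast and keratocyte arrays lay above all adult arrays, while fibroblast replicate 3 lay among them. The log2 difference from adult stroma was 2.09 ± 0.36 (SE) in myofibroblast cultures (adjusted p = 0.000452), 0.65 ± 0.36 in fibroblast cultures (adjusted p = 0.193) and 1.88 ± 0.36 in keratocyte cultures (adjusted p = 0.00112). Without fibroblast replicate 3, the array with low Acta2, the fibroblast difference was 1.19 with an adjusted p of 0.00309.

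**Figure D3:**
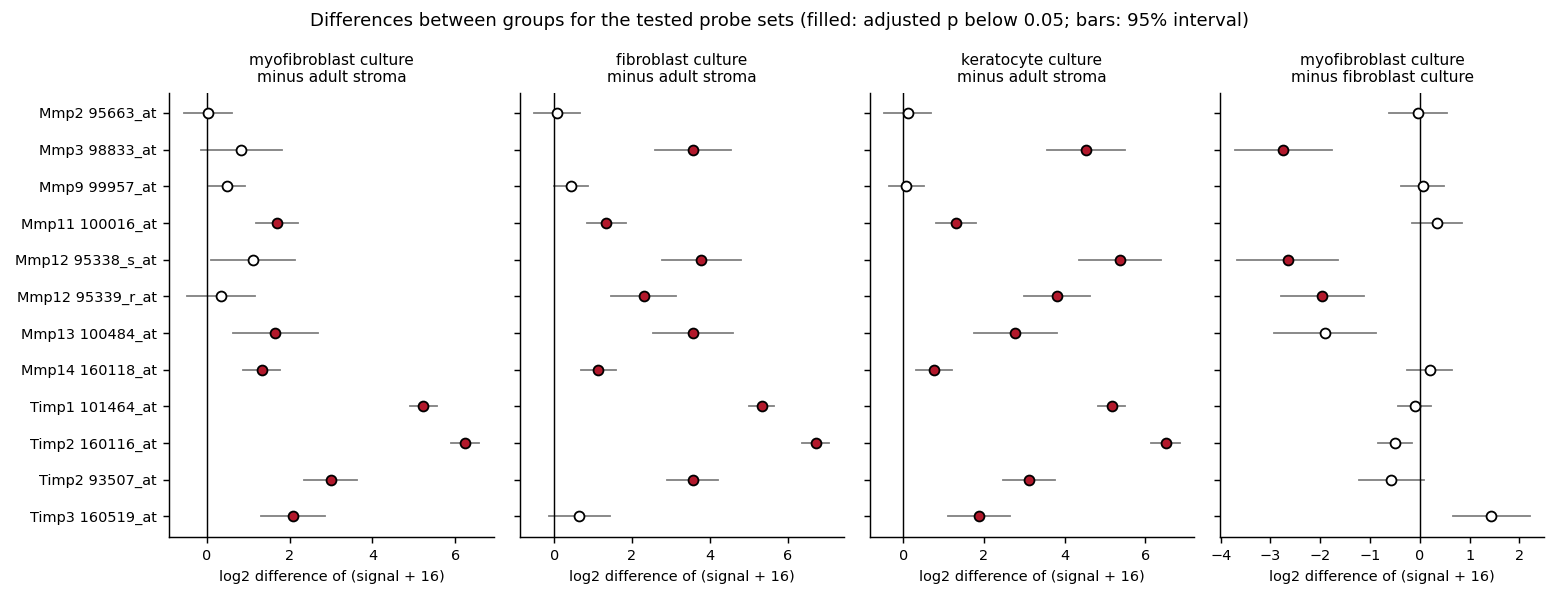
Differences in log2(signal + 16) with 95% confidence intervals for the 12 tested probe sets in the comparisons of the 3 cultures with adult stroma and of myofibroblast with fibroblast cultures, with filled points for adjusted p below 0.05. Differences with a side within background depend on the added 16. Against adult stroma no called point lies below 0, and between myofibroblast and fibroblast cultures Mmp3 lies at -2.75.

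The comparison of myofibroblast with fibroblast cultures asks what adding TGF-beta1 to serum changed. Mmp3 and Mmp12 were lower with TGF-beta1: 3 of the 12 probe sets were called lower and none higher, where 0.781% of all tested probe sets were called lower. The replicate numbers of these 2 groups mark arrays that deviate together, and each array can be set against its numbered partner. Mmp3 was 4.7- and 8.14-fold lower in the myofibroblast member of pairs 1 and 2. In pair 3 it had 80.2 against 827, with the myofibroblast array within background, so no fold is given. The log2 difference of Mmp3 was -2.75 ± 0.46 (SE, adjusted p = 0.00751), and it had an adjusted p of 5.83e-05 with the replicate block. Mmp12 passed by 95338_s_at (adjusted p = 0.0127, with the block 0.00289) and by 95339_r_at (adjusted p = 0.025, with the block 0.0103). With all myofibroblast arrays within background on 95338_s_at, it was at least 2.46-fold lower by that probe set. With only these 2 groups in the fit limma called none of the 12 and 16 of all 10370 probe sets, with an unadjusted p below 0.05 for 6 of the 12 and 719 of the 10370, and Mmp3 had an adjusted p of 0.279. Without fibroblast replicate 3 Mmp3 was still called (adjusted p = 0.00667), and the Mmp12 probe sets were not (adjusted p = 0.0562 and 0.104). The Mmp12 calls were also lost without fibroblast replicate 1 (0.0621 and 0.109) or myofibroblast replicate 3 (0.0518 and 0.0959), and that of 95339_r_at without myofibroblast replicate 1 (0.0915) or 2 (0.055), all adjusted p. With the constant 1 in place of 16 the call of 95338_s_at was lost as well (adjusted p = 0.0977). The Mmp3 call was kept without any single array.

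Over all arrays and the values as deposited, Mmp13 and Timp3 did not pass between myofibroblast and fibroblast cultures, but did with the replicate block, under which 4 of the 12 probe sets were called lower and 1 higher (1.69% and 0.752% of all tested). Mmp13 was lower in the myofibroblast member of each pair, with 167 against 346, 41.5 against 234 and 12.8 against 162 (adjusted p = 0.0879, with the block 0.0016). Timp3 was 1.93-, 2.13- and 5.23-fold higher in the myofibroblast member of the pairs, with a log2 difference of 1.43 ± 0.36 (SE, adjusted p = 0.0902, with the block 0.0109). The widest of these pairs is the one with fibroblast replicate 3, and without that array the difference, with no block, was 0.90 with an adjusted p of 0.166. Without fibroblast replicate 1 it was 1.81 with an adjusted p of 0.0292, and after quantile normalization 1.48 with an adjusted p of 0.0485. Mmp14 (0.20, 95% interval -0.26 to 0.65) and Timp1 (-0.10, interval -0.43 to 0.22) did not pass with or without the block. Timp2 had log2 differences of -0.50 and -0.57 by its 2 probe sets, which did not pass either (adjusted p = 0.273 and 0.722, with the block 0.168 and 0.429). Of the 13 macrophage markers 1, Cd68, fell in myofibroblast against fibroblast cultures without the block, where 0.781% of all tested were called lower. Its signals were 62.3, 64.8 and 76.6 against 194, 107 and 227.

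**Figure D4:**
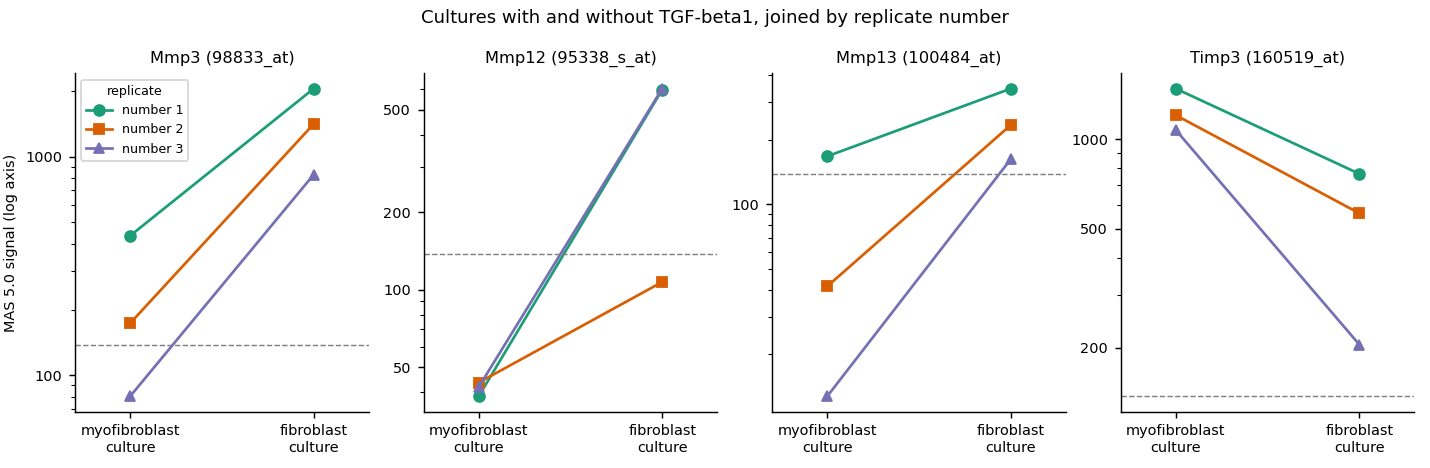
Signals of Mmp3, Mmp12 (95338_s_at), Mmp13 and Timp3 on log axes in myofibroblast cultures (left) and fibroblast cultures (right), with a line joining arrays of the same replicate number and the background dashed. Mmp3, Mmp12 and Mmp13 are lower and Timp3 is higher in the myofibroblast member of every pair.

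Fibroblast cultures were compared with keratocyte cultures, which differ in serum. By limma none of the 12 probe sets was called, where 1.37% of all tested were called, and 3 of the 12 had an unadjusted p below 0.05, against 895 of the 10370. Those 3 were the Mmp12 probe sets, with log2 differences of -1.58 ± 0.47 and -1.51 ± 0.39 (SE, adjusted p = 0.169 and 0.0834), and Timp3, with -1.23 ± 0.36 (adjusted p = 0.155). Mmp12, Timp3 and Mmp3 had all keratocyte arrays above all fibroblast arrays. Mmp13 ran the other way, with all fibroblast arrays above all keratocyte arrays. The share without overlap over all tested probe sets was not counted, so this is a description only. Without fibroblast replicate 1, Mmp12 by 95339_r_at (adjusted p = 0.0456) and Timp3 (adjusted p = 0.0387) passed, and Mmp12 by 95339_r_at also passed after quantile normalization (adjusted p = 0.0416). Without fibroblast replicate 3 the difference of Timp3 was -0.69 (adjusted p = 0.425), and those of Mmp12 were -1.975 and -1.78 (adjusted p = 0.106 and 0.0811). Mmp3 had a log2 difference of -0.95 with a 95% interval of -1.93 to 0.02, and without fibroblast replicate 3 it was -0.61 (adjusted p = 0.867). For Timp1 the difference was 0.17 (interval -0.16 to 0.50) and for Mmp14 it was 0.36 (interval -0.09 to 0.81).

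Myofibroblast cultures against keratocyte cultures, which differ in serum and in TGF-beta1, gave 3 of the 12 probe sets lower and none higher, where 4.88% of all tested were called lower. Centring each array on its median made that share 3.51%, with the same count of 3. Mmp3 had a log2 difference of -3.70 ± 0.46 (SE, adjusted p = 0.000202), with group means of 229 ± 184 in myofibroblast and 2611 ± 256 in keratocyte cultures (SD, n = 3 each). Mmp12 was at least 7.74-fold lower by 95338_s_at (adjusted p = 0.000108) and passed by 95339_r_at (adjusted p = 0.000105). Over the same arrays 7 of the 13 macrophage markers fell and none rose. Mmp14 was higher by 0.56 ± 0.21 on the log2 scale and did not pass (adjusted p = 0.149), and with each array centred on its median it was 0.73 with an adjusted p of 0.0361. Timp1, Timp2 and Timp3 differed by 0.27 or less on the log2 scale in either direction and did not pass.

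Adult stroma was set against P10 stroma, an age at which the mouse eye is still closed. Timp2 was lower in the adult: 2 of the 12 probe sets, both of Timp2, were called lower, where 3.26% of all tested were called lower. Probe set 160116_at was at 1 on all 3 adult arrays and at 100.5 and 110 in P10 stroma (adjusted p = 1.58e-06), all within background. Probe set 93507_at was at 50.3 to 78.5 in adult stroma and at 171.5 and 179.5 in P10 stroma, at least 1.27-fold lower in the adult (adjusted p = 0.0397). The second call was lost without adult replicate 1 or 2 or either P10 array, with adjusted p between 0.0971 and 0.271. Mmp14 averaged 428 ± 43.5 in adult stroma (SD, n = 3) and 671 ± 17.0 in P10 stroma (SD, n = 2), without overlap, and did not pass (adjusted p = 0.191). Timp1 (adjusted p = 0.0517) and Timp3 (adjusted p = 0.291) also had all adult arrays below both P10 arrays and did not pass. Mmp3 and Mmp13 had all adult arrays above both P10 arrays, but only 1 of these arrays, of Mmp3 in adult stroma, was above background. These 2 therefore give no direction. The share without overlap over all tested probe sets was not counted, and with 3 and 2 arrays a lack of overlap is a description only. Timp1 did pass with adult replicate 3 left out, with the constant 1 in place of 16, and with a filter at a mean signal of 100. Over all tested probe sets the median log2 difference was -0.13 in this comparison, and 0.05 after centring each array on its median.

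Other metalloproteinases and direct regulators were measured by 11 tested genes of a list. Of these 5 rose in keratocyte cultures against adult stroma, 3 in fibroblast cultures and 4 in myofibroblast cultures, where 1 also fell. Over all tested probe sets 21.8%, 18.4% and 17.5% were called higher in keratocyte, fibroblast and myofibroblast cultures, and 9.25%, 12.3% and 15.5% lower. Mmp7 (matrilysin), at the far end of the chromosome 9 cluster, had 404, 304 and 573 in myofibroblast cultures, 277, 233 and 249.6 in fibroblast cultures and 192, 196 and 264 in keratocyte cultures, against 38.1 to 58.4 in adult stroma. Its log2 difference of myofibroblast from keratocyte cultures was 0.90 ± 0.24 (SE, adjusted p = 0.0429), and that from fibroblast cultures, 0.68, did not pass (adjusted p = 0.358). Mmp8 and Mmp10 of the same cluster had culture means of 79.1 to 113, within background. Reck, a membrane-anchored inhibitor of metalloproteinases, was at least 1.36-fold higher than adult stroma in myofibroblast, 2.07-fold in fibroblast and 1.95-fold in keratocyte cultures. Tfpi2, a secreted protease inhibitor, had means of 203 ± 43.7 in myofibroblast and 28.7 ± 13 in fibroblast cultures (SD, n = 3 each, adjusted p = 0.000251). A2m, the general protease inhibitor alpha-2-macroglobulin, fell in myofibroblast against fibroblast cultures by 2.35 on the log2 scale (adjusted p = 0.035). Lcn2, which binds and stabilises MMP9, had means of 37.9 ± 31.1 in myofibroblast, 109 ± 23.6 in fibroblast and 905 ± 157 in keratocyte cultures (SD, n = 3 each). Its fall in myofibroblast (adjusted p = 7.28e-06) and fibroblast (adjusted p = 0.00185) against keratocyte cultures passed.

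Other protease lists can be read beside the same shares of all tested probe sets. Of 7 tested ADAM and ADAMTS genes, membrane-bound or secreted relatives of the metalloproteinases, 5 rose in keratocyte, 5 in fibroblast and 3 in myofibroblast cultures against adult stroma. Adam19 was at least 2.07-fold, 1.49-fold and 1.59-fold higher than adult stroma in myofibroblast, fibroblast and keratocyte cultures. Adam8, a protease of leukocytes, had a mean of 3.30 ± 2.16 in myofibroblast and 253 ± 29.2 in keratocyte cultures (SD, n = 3 each, adjusted p = 0.000122). Of 6 tested genes of plasminogen activation, a step upstream of proMMP activation, 3 rose in keratocyte and 2 in fibroblast cultures against adult stroma, and 1 rose and 1 fell in myofibroblast cultures. Plau, the urokinase, fell in myofibroblast against keratocyte cultures, with means of 135 ± 69.3 and 454 ± 136 (SD, n = 3 each, adjusted p = 0.0238). Of 9 tested cathepsins and cystatins, lysosomal proteases and their inhibitors, 5 fell in myofibroblast against keratocyte cultures, where 4.88% of all tested were called lower, among them Ctss, at least 5.12-fold lower. Ctsk, the collagen-cutting cathepsin K, rose against adult stroma by 1.71 ± 0.31 on the log2 scale in myofibroblast, 1.54 ± 0.31 in fibroblast and 1.16 ± 0.31 in keratocyte cultures (SE, adjusted p = 0.000738, 0.00178 and 0.0114).

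The genes of the AP-1 subunits were listed because of the motif in the Mmp3, Mmp12 and Mmp13 windows. None of 7 tested subunits passed by limma between cultures, where an unadjusted p below 0.05 was reached by 1 (myofibroblast against fibroblast), 2 (myofibroblast against keratocyte) and 2 (fibroblast against keratocyte), and by 835, 2052 and 895 of all 10370 probe sets in the same comparisons. Fosl1 rose against adult stroma in all 3 cultures, at least 1.33-fold in myofibroblast, 1.42-fold in fibroblast and 1.81-fold in keratocyte cultures. Junb also rose in myofibroblast and Fosl2 in fibroblast cultures against adult stroma, while Fos and Fosb fell in both. Of the 7 subunits, 2 thus rose and 2 fell in each of these cultures, and 1 rose in keratocyte cultures. Over all tested probe sets 17.5%, 18.4% and 21.8% were called higher in myofibroblast, fibroblast and keratocyte cultures, and 15.5%, 12.3% and 9.25% lower. Fos had means of 83.7 ± 31.1 in myofibroblast and 73.3 ± 22.7 in fibroblast cultures, against 213 ± 87.6 in adult stroma (SD, n = 3 each). Array signals of Fos and Jun transcripts say nothing of the activity of the proteins.

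The genes whose group pattern was most like that of a member were found among 5415 genes, by the root mean square difference of the 5 group means on the log2 scale after each gene was centred on its own mean. For Mmp12 (95339_r_at) they were Clec4d, Lilr4b and Ccl6, with differences of 0.14, 0.23 and 0.26. For Mmp3 they were Ccl9 (0.45), Ccl7 (0.52) and Lyz2 (0.53). Timp3 was most like Ncam1 (0.22), Has2 (0.24) and Acta1 (0.26). Mmp13 was most like Aqp1 (0.27), Pdgfra (0.36) and Twist1 (0.39), Mmp14 like Cyth3 (0.04), and Timp1 like Cyp1b1 (0.22). Timp2 had no pattern closer than that of Lox, at 0.39. With 5 groups such likeness is a description only.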

How the data were processed

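Per the labels, RNA isolated with TRIzol was hybridised 1 sample per array, and Microarray Suite 5.0 was used, per the submitters' processing notes. The deposited intensity of each probe set is a linear signal that is never below 1. A scaling target of 150 is named in the labels; the columns have trimmed means between 164.3 and 224.7, and how they were scaled is thus not settled. No detection calls were used. Probe sets were named from the platform annotation (1 symbol for 10833 of 12422, several for 396, none for 1193).

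Values of log2(signal + 16) of the 10370 probe sets with a mean signal of 50 or more in at least 1 group were fitted in limma 3.58.1 (R 4.3.3), with 1 mean per group over all 14 arrays (9 residual degrees of freedom), a trended empirical Bayes variance and two-sided tests. The fit was tested on simulated data with independent normal noise around 1 mean per probe set. These held no paired arrays, no floor at 1 and no outlying array, so the rates may not hold for the real arrays. Over the comparisons it recovered 48% to 67% of log2 changes of 1 and 92% to 98% of changes of 2. Of its calls, 2.58% to 6.54% were false. Background was the 95th percentile of 19 control probe sets. Of the lists beside the 10 genes, at most 4 called members per comparison with arrays that do not overlap and a higher mean above background were named by the largest log2 difference; marker genes shown as array values were picked after their values were seen. The members and lists were chosen with earlier results of these data known. Replicate numbers were taken to pair myofibroblast and fibroblast arrays, because the deviations of same-numbered arrays from their group means correlated (0.623, 0.682 and 0.533); in no other comparison did all exceed 0.1. Alternatives were the constants 1 and 64, other filters, quantile or median scaling, a fit of 2 groups, the replicate block, a threshold of 0.01 and leaving out each array.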

Additional observations from a re-analysis of the deposited data

How the results depend on the processing

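Adding the constant 64 left 1 probe set called between adult and P10 stroma and 1 between fibroblast and keratocyte cultures. Quantile normalization also gave 1 between fibroblast and keratocyte cultures, and the replicate block gave 2. At an adjusted p below 0.01, 1 was called between adult and P10 stroma and 1 between myofibroblast and fibroblast cultures. With only the 2 groups in the fit, 0 were called by limma between myofibroblast and fibroblast cultures, where 6 of 12 and 719 of all 10370 had an unadjusted p below 0.05, and with the replicate block 5 were. When each array was left out in turn, the counts ran from 1 to 3 for adult against P10 stroma, from 9 to 10 for keratocyte and for fibroblast cultures against adult stroma, from 6 to 8 for myofibroblast cultures against adult stroma, from 0 to 2 for fibroblast against keratocyte cultures, from 1 to 3 for myofibroblast against fibroblast cultures and from 3 to 4 for myofibroblast against keratocyte cultures. The log2 differences of single probe sets stayed on the same side of the threshold in 725 repeats, lost the call in 21, gained it in 12 and changed sign in 5. The sign changes were in uncalled differences of myofibroblast from keratocyte cultures. That of Timp2 (probe set 93507_at), -0.12, became 0.058 under quantile normalization and 0.054 with arrays centred on their median, and ran from -0.396 to 0.082 when each array was left out, above 0 without keratocyte replicate 1 or myofibroblast replicate 2. That of Timp1, 0.065, ran from -0.035, without myofibroblast replicate 1, to 0.156. The causes were not tested. In the other comparisons of cultures and tissue the replicate numbers are not shown to pair arrays, and the block moved no count there by over 1.5 times except between fibroblast and keratocyte cultures. Which probe sets were called did change there: against P10 stroma adult stroma lost Timp2 (93507_at, adjusted p = 0.0538) and gained Timp1, and against adult stroma Mmp9 was gained in myofibroblast and Timp3 (adjusted p = 0.0399) in fibroblast cultures.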
